A study of Homo sapiens with 12 samples.

Results

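The subject is 10 genes of telomere upkeep in OCI-Ly7 cells: the telomerase genes TERT, DKC1, NOP10, NHP2 and WRAP53 and the shelterin genes TERF1, TERF2, POT1, ACD and TINF2. They were taken by gene symbol from a table of 78892 genes, and all 10 passed the filter on low counts that left 17869 genes for testing. TERT was picked because its level was lower with the HDAC3 inhibitor alone than with vehicle, and the question was whether the 9 others share that fall. OCI-Ly7 is 1 human lymphoma line, from a diffuse large B-cell tumour of the germinal-centre kind. Poly(A) RNA was sequenced from 12 libraries, 3 per group. One group received both drugs, that is 5-azacitidine at 100 nM daily on day 0 to day 4 and the HDAC3 inhibitor at 15 µM on day 2 and day 4. Other groups received the HDAC3 inhibitor alone, 5-azacitidine alone or vehicle only on the same schedule, and all were harvested on day 5. HDAC3 removes acetyl groups from histones as part of co-repressor complexes. 5-azacitidine, once built into DNA, traps DNA methyltransferases. Nothing in the labels ties the 3 libraries of a group to separate cultures, and the p-values measure only the spread between libraries, which may be technical.

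Telomerase adds telomere repeats to chromosome ends. TERT is its reverse transcriptase and usually the limiting part, silent in most adult tissues and active in germinal-centre B cells and most cancers. DKC1, NOP10 and NHP2 bind the RNA component TERC and other H/ACA RNAs, and WRAP53 brings the enzyme to Cajal bodies and telomeres. Shelterin coats the repeats: TERF1 and TERF2 bind the double strand, POT1 the single strand, TINF2 links these proteins, and ACD, also called TPP1, carries POT1 and recruits telomerase.

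The stretch before the start of TERT is shown because factors of the MYC, SP and ETS families are known to act there, and that before DKC1 because, of the partners, it had the lowest fold change in each of the 3 comparisons that add the inhibitor. The sequences are from RefSeq, build GRCh38.p14, which had promoters for 8 of the 10 genes. TERT lies at chr5:1253147-1295068 on the minus strand, and the 250 bases before it are chr5:1295069-1295318. The DKC1 stretch is chrX:154762614-154762741 on the plus strand, which ends where the gene begins. Both read 5′ to 3′ towards the gene, and capitals mark an E-box (CACGTG, the letters bound by MYC and MAX) or a GC box (GGGCGG on either strand, the letters bound by SP1).

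TERT: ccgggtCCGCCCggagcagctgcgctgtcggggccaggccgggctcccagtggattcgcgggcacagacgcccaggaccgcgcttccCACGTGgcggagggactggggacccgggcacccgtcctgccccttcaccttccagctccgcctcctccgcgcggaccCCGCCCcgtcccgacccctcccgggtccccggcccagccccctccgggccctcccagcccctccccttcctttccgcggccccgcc
DKC1: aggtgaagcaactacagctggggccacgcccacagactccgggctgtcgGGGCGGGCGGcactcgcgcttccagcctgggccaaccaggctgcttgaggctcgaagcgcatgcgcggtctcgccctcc

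The TERT stretch held 1 E-box and 2 GC boxes, none of them overlapping, and no ETS letters (CCGGAA on either strand). In DKC1 the capitals are GC boxes that overlap. Of 34943 RefSeq promoter stretches of 250 bases, 6.32% held the E-box, 42.5% a GC box and 14.5% the ETS letters, so the E-box was the rarest of these in the table. The TERT stretch had 28 CpG sites and 78.8% G and C, against a median of 11 sites and 58.0% over all stretches, and 84.2% of stretches had fewer sites. The NOP10 promoter held E-boxes as well, while the NHP2, WRAP53, POT1, ACD and TINF2 promoters held none. These are matches of letters, not measured binding or methylation.

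Library totals were close, 35947872 to 36337086 counts. All 10 markers of germinal-centre type B cells were present, summing to 4363 to 4425 CPM (counts scaled to 1e+06 per library) with both drugs, 4283 to 4322 with the inhibitor, 3507 to 3568 with 5-azacitidine and 3297 to 3377 with vehicle. Markers of T and NK cells summed to 242 to 257, 245 to 253, 107 to 116 and 87.7 to 96.1 CPM in the same order, with CD8A and CD8B at 0 in every library. Those of monocytes and granulocytes summed to 5.86 to 7.42, 2.79 to 3.54, 0.390 to 0.497 and 0.360 to 0.607 CPM, with S100A8 and FCGR3B at 0. A list of 20 genes of dividing cells summed to 5448 to 5635 CPM with both drugs, 5794 to 5890.2 with the inhibitor, 6705 to 6973 with 5-azacitidine and 6692 to 6930.04 with vehicle, and 13 of the 20 fell and none rose with the inhibitor against vehicle by edgeR's quasi-likelihood test, the test used throughout, beside 24.9% of all tested genes called lower and 26.4% higher. The mitochondrial share of counts was 12.5 to 15.3% with both drugs, 12.1 to 13.02% with the inhibitor, 10.01 to 13.8% with 5-azacitidine and 9.59 to 10.5% with vehicle. The 13.8% library, 5-azacitidine replicate 1, stood apart from the other 2 of its group. The part of dividing-cell genes, of other cell types' markers and of the mitochondrial share in the results below was not tested, and in bulk RNA fewer cells expressing a gene and less of its RNA per cell cannot be told apart.

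TERT had its highest level in vehicle cells and its lowest with both drugs. Its level, in CPM scaled between libraries by TMM, was 44.9, 34.2 and 38.6 with both drugs, 50.5, 52.1 and 51.8 with the inhibitor, 74.6, 73.3 and 78.8 with 5-azacitidine, and 110.1, 114.3 and 119 with vehicle. The 4 groups did not overlap, and each step from vehicle to 5-azacitidine, to the inhibitor and to both drugs was a lower one. The means were 39.2 ± 5.41 CPM with both drugs, 51.5 ± 0.841 with the inhibitor, 75.6 ± 2.84 with 5-azacitidine and 114.3 ± 4.28 with vehicle (SD, n = 3 each). Spread was widest with both drugs, where replicate 2 was the lowest of all 12 libraries.

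**Figure D1:**
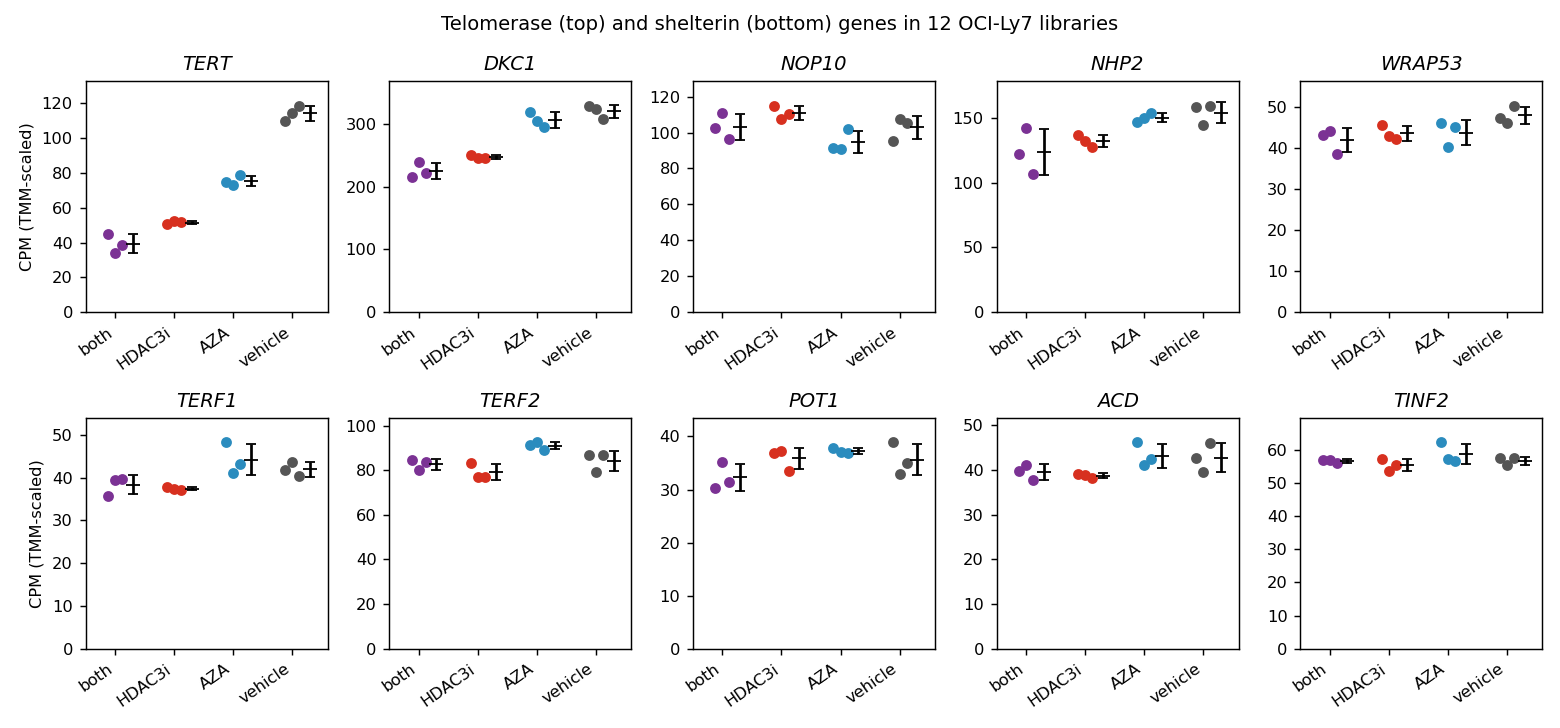
Level of each of the 10 genes in every library (TMM-scaled CPM, linear axis from 0, 1 panel per gene), with groups from left to right both drugs, HDAC3 inhibitor, 5-azacitidine and vehicle. Dots are libraries and bars are mean ± SD (n = 3); the TERT panel falls into 4 separate levels, 39.2 to 114.3 CPM on average, while those of most other genes overlap.

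The fold changes of TERT are of 2 kinds. With the inhibitor against vehicle it was 0.450-fold (log2 −1.15 ± 0.07 SE, 95% interval −1.29 to −1.01), the difference it was picked for, and with both drugs against vehicle, which uses the same vehicle libraries, log2 −1.54 ± 0.07; these are descriptions with no test. Of the 17869 genes tested, 140 (0.784%) changed as far down as TERT or further with the inhibitor and 65 (0.364%) with both drugs. Both drugs against 5-azacitidine alone is a comparison of 6 other libraries than those of the inhibitor and vehicle groups. There TERT fell by 0.95 on the log2 scale with both drugs (SE 0.07, adjusted p = 1.01e-11, edgeR). In that comparison 318 genes (1.78%) were as low as TERT or lower.

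With 5-azacitidine the change of TERT was smaller in size than with the inhibitor, a difference between the drugs that was not tested. TERT was lower by 0.60 on the log2 scale with 5-azacitidine against vehicle (SE 0.07, 95% interval −0.74 to −0.46). This comparison shares the vehicle libraries with the one TERT was picked from, so it too is a description. There 561 genes (3.14%) were as low. On top of the inhibitor, both drugs against the inhibitor alone, TERT was lower by 0.39 (SE 0.07), with 998 genes (5.59%) as low. The inhibitor libraries are shared with the comparison TERT was picked from, so this is again a description. The 2 single-drug changes summed to −1.75, against −1.54 measured with both drugs. The difference, the interaction, was 0.21 ± 0.10 (SE) with a 95% interval of 0.00 to 0.41. It holds the difference TERT was picked for, with its sign turned. It is therefore a description, and no departure from the sum is claimed. Over 22 alternatives the interaction ran from 0.10 to 0.30, the highest being without replicate 2 of both drugs.

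The enzyme's RNA-binding partners moved less, and not alike. DKC1, the pseudouridine synthase of H/ACA particles, had 215, 239 and 222 CPM with both drugs and 251, 245 and 246 with the inhibitor, against 319.7, 304 and 295 with 5-azacitidine and 329, 324 and 309 with vehicle. The groups that received the inhibitor lay below both that did not, with no overlap. DKC1 fell by 0.37 with the inhibitor against vehicle (SE 0.05, log2, adjusted p = 8.32e-07), by 0.51 with both drugs against vehicle (SE 0.05, adjusted p = 3.04e-09) and by 0.44 with both drugs against 5-azacitidine (SE 0.05, adjusted p = 4.31e-08). With 5-azacitidine against vehicle its change was −0.07 (SE 0.05), not called.

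NHP2, a core protein of the same particles, had 122, 142 and 107 CPM with both drugs, 137, 133 and 128 with the inhibitor, 147, 150.3 and 154 with 5-azacitidine and 158, 145 and 159.5 with vehicle. The inhibitor libraries were all below the vehicle libraries, and the both-drug libraries ranged widely. NHP2 fell by 0.22 with the inhibitor against vehicle (SE 0.07, adjusted p = 0.00956), by 0.32 with both drugs against vehicle (SE 0.07, adjusted p = 0.000316) and by 0.28 with both drugs against 5-azacitidine (SE 0.07, adjusted p = 0.00118). The inhibitor call was lost when genes had to reach 5 CPM in at least 3 libraries (the stricter filter) (adjusted p = 0.0704, the highest of 23 alternatives, whose lowest was 0.000714). Of the exon bases of NHP2, 28.0% are shared with RMND5B on the other strand, and RMND5B rose by 0.36 with the inhibitor (adjusted p = 1.99e-06).

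NOP10, the smallest protein of the H/ACA core, had 102, 111 and 96.6 CPM with both drugs, 115, 108 and 110.5 with the inhibitor, 91.4, 90.7 and 102 with 5-azacitidine and 95.5, 108 and 105 with vehicle. The inhibitor libraries were all above the 5-azacitidine libraries, a pair that was not tested, and the other groups overlapped. No comparison called NOP10: the log2 change was 0.11 (adjusted p = 0.144) with the inhibitor and −0.12 with 5-azacitidine, each against vehicle. With the stricter filter it was called higher with the inhibitor (0.18, adjusted p = 0.0123, the range over the alternatives being 0.0123 to 0.542). The sign of its inhibitor change was thus opposite to that of DKC1 and NHP2, its fellows in the H/ACA core, but its 95% interval reached past 0 (−0.02 to 0.23).

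WRAP53 had 43.0, 44.1 and 38.5 CPM with both drugs, 45.5, 42.9 and 42.1 with the inhibitor, 45.9, 40.1 and 45.0 with 5-azacitidine and 47.2, 46.1 and 50.2 with vehicle. Every treated library was below every vehicle library. It fell by 0.19 with both drugs against vehicle (SE 0.07, adjusted p = 0.0161), a call lost without vehicle replicate 3, without replicate 3 of both drugs and in 2 other of 23 alternatives (adjusted p up to 0.142). The change was −0.14 with the inhibitor (adjusted p = 0.0881) and −0.13 with 5-azacitidine, not called.

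Of the 5 shelterin genes 1, TERF1, was called with the inhibitor against vehicle, beside 24.9% of all tested genes lower and 26.4% higher. None was called with 5-azacitidine against vehicle (4.75% lower and 4.31% higher) or both drugs against vehicle (27.5% and 29.6%). TERF1 had 35.7, 39.5 and 39.6 CPM with both drugs, 37.9, 37.3 and 37.1 with the inhibitor, 48.2, 41.1 and 43.1 with 5-azacitidine and 41.8, 43.7 and 40.3 with vehicle. Its inhibitor and both-drug libraries were below all vehicle libraries. It fell by 0.17 with the inhibitor against vehicle (SE 0.07, adjusted p = 0.0401), a call lost in 10 of 23 alternatives, among them each of the 3 without an inhibitor library and those without vehicle replicate 1 or 2 (adjusted p up to 0.237).

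TERF2, which guards chromosome ends against fusion, had 84.7, 80.0 and 83.6 CPM with both drugs, 83.2, 76.9 and 77.2 with the inhibitor, 91.3, 92.4 and 89.2 with 5-azacitidine and 86.9, 79.2 and 86.7 with vehicle. The 5-azacitidine libraries were the highest, and the other groups overlapped. POT1 had 30.4, 35.2 and 31.3 CPM with both drugs, 36.8, 37.2 and 33.5 with the inhibitor, 37.8, 37.05 and 36.8 with 5-azacitidine and 38.9, 33.01 and 35.04 with vehicle. In POT1 only the both-drug and 5-azacitidine groups were apart from each other.

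ACD had 39.6, 41.2 and 37.7 CPM with both drugs, 39.1, 38.9 and 38.1 with the inhibitor, 46.1, 41.0 and 42.3 with 5-azacitidine and 42.6, 39.5 and 46.0 with vehicle. TINF2 had 57.0, 56.9 and 56.1 CPM with both drugs, 57.2, 53.6 and 55.6 with the inhibitor, 62.2, 57.3 and 56.6 with 5-azacitidine and 57.5, 55.4 and 57.5 with vehicle. Neither was called in any comparison. The inhibitor libraries of ACD were all below its vehicle libraries. Its log2 change against vehicle was −0.14 ± 0.07 SE with the inhibitor (adjusted p = 0.0734, edgeR) and −0.11 ± 0.07 with both drugs. Without vehicle replicate 2 both changes were called (adjusted p = 0.02435 and 0.04805, the highest of 23 alternatives being 0.368 and 0.673). The log2 changes of TINF2 with the inhibitor (−0.03 ± 0.06 SE) and with both drugs (−0.00 ± 0.06), each against vehicle, were both within 1 SE of 0. Of the exon bases of TINF2, 27.9% are shared with other genes, mostly GMPR2.

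With both drugs against 5-azacitidine, 3 of the 5 shelterin genes were called, beside 25.1% of all genes called lower and 28.7% higher: TERF1 fell by 0.21 (SE 0.07, adjusted p = 0.0102), POT1 by 0.20 (SE 0.07, adjusted p = 0.0172) and TERF2 by 0.14 (SE 0.05, adjusted p = 0.0377). All 3 calls were lost without 5-azacitidine replicate 1, the library that stood apart, and with the stricter filter. TERF1 and POT1 were also lost without replicate 1 of both drugs, POT1 and TERF2 without replicate 3, and TERF2 without 5-azacitidine replicate 2 or replicate 2 of both drugs.

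**Figure D2:**
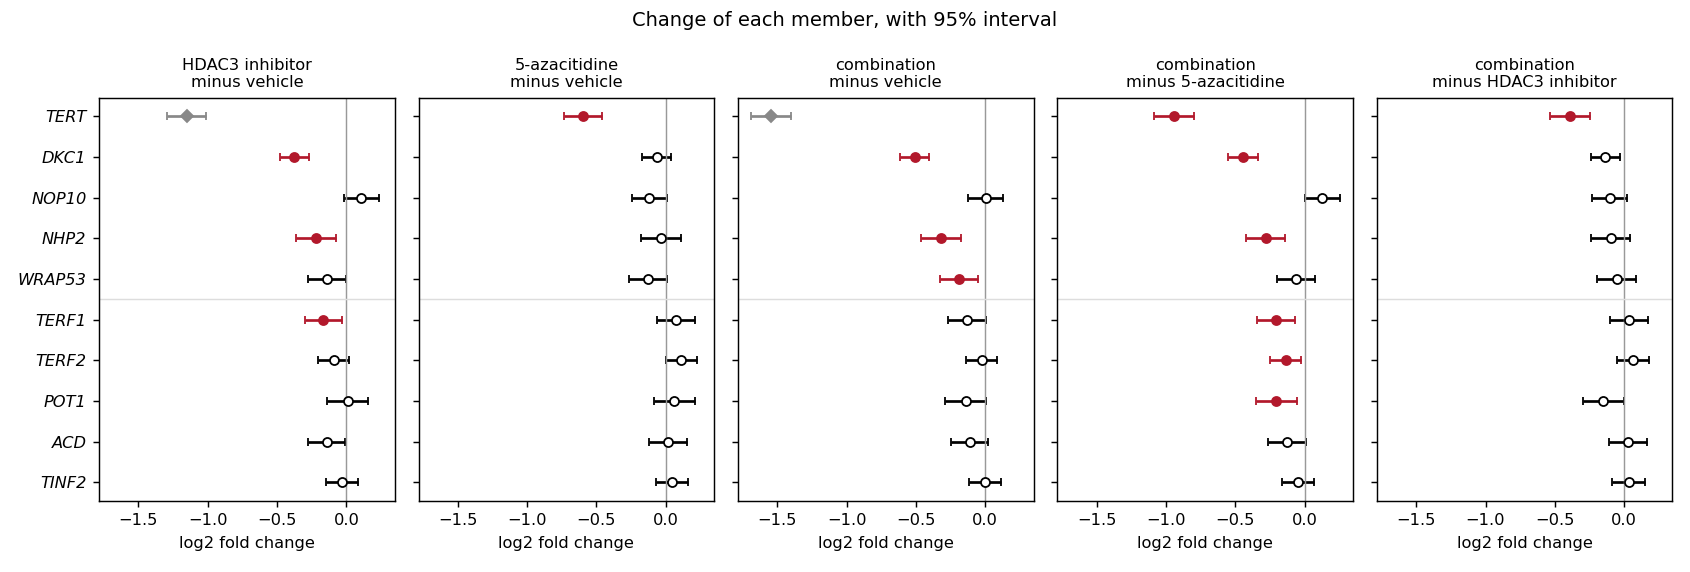
Log2 fold change of each gene with its 95% interval in the 5 comparisons of 2 groups (edgeR, 12 libraries). Filled red marks are genes called at an adjusted p under 0.05, open marks are not called, and grey diamonds are TERT where it was not tested. The TERT marks for 5-azacitidine against vehicle and both drugs against the inhibitor are also read as descriptions. TERT lies at −1.15 and −1.54 in the inhibitor and both-drug comparisons with vehicle, and DKC1, the lowest partner, at −0.37 and −0.51.

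Counted over the 9 partners of TERT, 3 fell and none rose with the inhibitor against vehicle (DKC1, NHP2 and TERF1). In that comparison 24.9% of all tested genes were called lower, a share near that of the partners, and 26.4% higher. At an unadjusted p under 0.05, 5 partners were lower and none higher, DESeq2 called 2 lower, and limma voom 3. No share of all genes is given at that p or by those tools, here or below, so those counts have nothing to be set against. With both drugs 3 partners fell against vehicle (DKC1, NHP2 and WRAP53; 27.5% of all genes called lower and 29.6% higher) and 5 fell against 5-azacitidine (25.1% called lower and 28.7% higher). The 3 against vehicle became 5 without vehicle replicate 2. The 5 against 5-azacitidine became 2 without 5-azacitidine replicate 1 and 3 without replicate 1 of both drugs, so that count rested on single libraries.

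With 5-azacitidine against vehicle none of the 9 partners was called lower or higher by edgeR, by DESeq2 or by limma voom, and none had an unadjusted p under 0.05; 4.75% of all genes were called lower and 4.31% higher. The partners' changes ran from −0.13 (WRAP53, 95% interval down to −0.27) to 0.11 (TERF2), all smaller than the −0.60 of TERT. With both drugs against the inhibitor none was called either (2.83% of all genes lower and 4.51% higher), with 2 lower at an unadjusted p under 0.05 and none by DESeq2 or voom. Without replicate 2 of both drugs 2 were called there, DKC1 (adjusted p = 0.0266, 0.0266 to 0.367 over the alternatives) and NHP2 (adjusted p = 0.0259, 0.0259 to 0.997). In the interaction none was called (0.453% of all genes lower and 0.263% higher), with 1, POT1, below an unadjusted p of 0.05 and none by the other tools.

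The median log2 change of the 9 partners was −0.14 with the inhibitor against vehicle, −0.13 with both drugs against vehicle and −0.14 with both drugs against 5-azacitidine, and 0.01 with 5-azacitidine against vehicle. The medians of all tested genes were 0.00, 0.01, 0.01 and 0.00. The comparisons with vehicle share its 3 libraries, so their values are given side by side and not as repeats of each other.

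**Figure D3:**
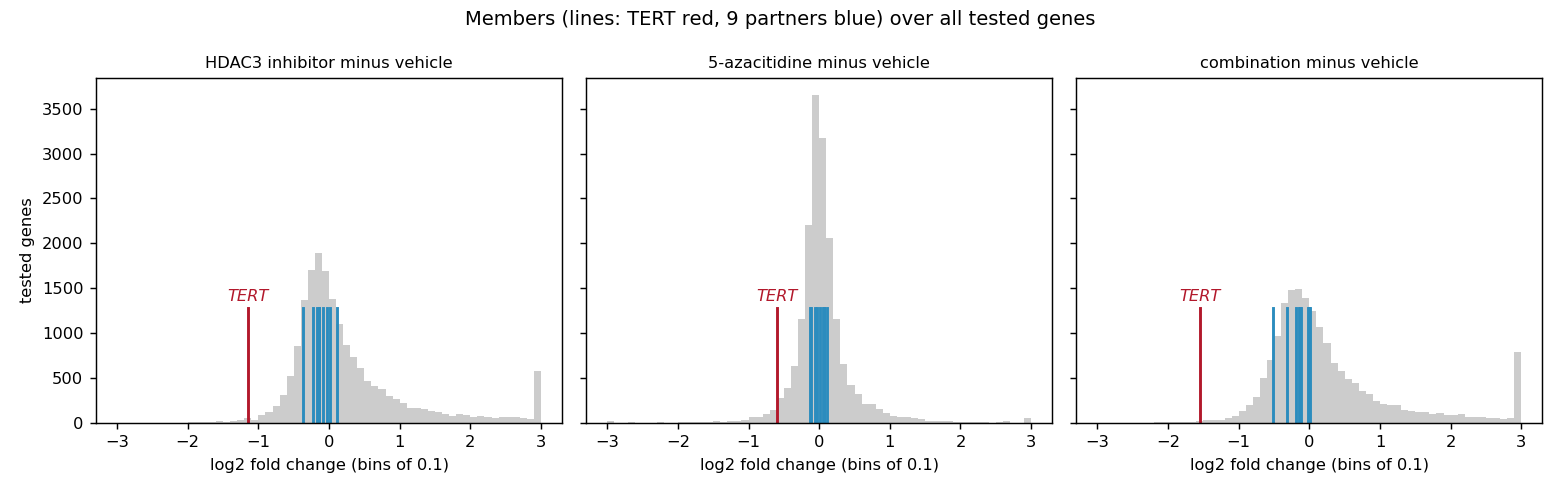
Histograms of the log2 fold change of all 17869 tested genes in the 3 comparisons with vehicle (bins of 0.1, the end bins hold all genes beyond), with TERT as a red line and its 9 partners as blue lines. TERT lies far to the left, with 140, 561 and 65 genes as low or lower for the inhibitor, 5-azacitidine and both drugs. In the same order the partners run from −0.37 to 0.11, −0.13 to 0.11 and −0.51 to 0.00, with 7, 4 and 8 of the 9 below 0.

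The balance between TERT and its main partner moved with TERT. The log2 ratio of TERT to DKC1 counts was −2.53 ± 0.27 with both drugs, −2.26 ± 0.04 with the inhibitor, −2.02 ± 0.10 with 5-azacitidine and −1.49 ± 0.10 with vehicle (SD, n = 3 each). Every treated library had a lower ratio than every vehicle library. Against NOP10, which no comparison called, the log2 ratio was −1.40 ± 0.26, −1.11 ± 0.07, −0.32 ± 0.04 and 0.15 ± 0.06 in the same order. Against TINF2 it was −0.54 ± 0.20 with both drugs, −0.11 ± 0.07 with the inhibitor, 0.36 ± 0.11 with 5-azacitidine and 1.01 ± 0.06 with vehicle.

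Per exon length, as TPM (counts per exon base, scaled to the same total of 1e+06 in each library), TERT changed its place in the order of the 10 genes. In vehicle cells NHP2 came first (306 TPM), then NOP10 (191), DKC1 (102), TERT (56.6 ± 1.31) and TERF2 (43.8), with no overlap between these neighbours. ACD (38.8) and TINF2 (38.0) overlapped each other, and WRAP53 (23.3), POT1 (11.98) and TERF1 (7.83) followed. With 5-azacitidine TERT was rank 7 at 36.3 ± 3.50 TPM. Its range there, 32.6 to 39.6 TPM, overlapped those of ACD (37.1 to 39.1) and TINF2 (36.8 to 38.9). Ranks 5 to 7 were therefore not separated in that group. With the inhibitor it was rank 7 at 23.4 ± 0.33 TPM, apart from its neighbours, and with both drugs rank 8 at 17.4 ± 3.05 TPM, overlapping WRAP53 at 18.2. TERF1 was last and NHP2 first in all 4 groups, though NHP2 and NOP10 overlapped with both drugs. All 10 mean levels were lower with the inhibitor than with vehicle in TPM, against 8 of 10 in TMM-scaled CPM. In CPM the means of NOP10 (111 against 103) and POT1 (35.9 against 35.6) were higher. TPM has a fixed total, and no share of all genes lower in TPM is given here. The count of 10 is therefore not a count of genes that fell.

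TERC, the RNA component, had 0 counts in all 12 libraries, which sets no upper limit on its level. All of its 451 exon bases are shared with a gene on the other strand, and reads over more than 1 gene were left out, so this count carries no measure of TERC. Of 15 other genes of telomerase assembly and RNA maturation, 14 were tested. With the inhibitor against vehicle 12 fell and none rose, beside 24.9% of all genes called lower and 26.4% higher. Their median was −0.30, against 0.00 over all genes. With both drugs 13 fell and none rose against vehicle, beside 27.5% of all genes lower and 29.6% higher. Against 5-azacitidine 12 fell and none rose, beside 25.1% lower and 28.7% higher. With the inhibitor against vehicle HSP90AA1, a chaperone, fell by 0.71 (SE 0.06, adjusted p = 1.99e-10). In the same comparison NAF1, an assembly factor of H/ACA particles, fell by 0.58 (SE 0.06, adjusted p = 9.19e-09) and ZCCHC8, of the nuclear RNA exosome adaptor, by 0.57 (SE 0.06, adjusted p = 2.85e-09). GAR1, the fourth protein of mature H/ACA particles, fell there by 0.46 (SE 0.06, adjusted p = 5.97e-07).

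With 5-azacitidine against vehicle 2 of the 14 fell and none rose, with a median of −0.06, beside 4.75% of all genes called lower and 4.31% higher. They were RUVBL1, by 0.21 (SE 0.05, adjusted p = 0.00743), and RUVBL2, by 0.23 (SE 0.06, adjusted p = 0.0236), the paired ATPases that help assemble H/ACA particles and telomerase. The RUVBL2 call was lost without vehicle replicate 1 or 3 or 5-azacitidine replicate 2 or 3 (adjusted p up to 0.192). RUVBL1 and RUVBL2 also fell with the inhibitor, by 0.21 and 0.40.

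Of 27 other genes of telomere maintenance 25 were tested. With the inhibitor against vehicle 12 fell and 2 rose, with a median of −0.15, beside 24.9% of all genes called lower, 26.4% higher and a median of 0.00. With both drugs against vehicle 15 fell and 2 rose, beside 27.5% lower and 29.6% higher. The next 4 changes are with the inhibitor against vehicle. PIF1, a helicase that removes telomerase from telomeres in budding yeast, fell by 0.77 (SE 0.08, adjusted p = 4.82e-09) and RIF1 by 0.49 (SE 0.06, adjusted p = 1.38e-07). ZBTB48, which binds telomere repeats and is also called TZAP, fell by 0.45 (SE 0.07, adjusted p = 8.83e-06). SAMHD1, a dNTP hydrolase, rose by 0.45 (SE 0.06, adjusted p = 1.60e-07). TERF2IP, the shelterin protein RAP1, was not called with the inhibitor (−0.12, adjusted p = 0.0622). With 5-azacitidine 2 fell and 1 rose, beside 4.75% and 4.31% of all genes: both named genes belong to DNA polymerase alpha-primase, PRIM1, which rose by 0.31 (SE 0.08, adjusted p = 0.00964), and POLA1, which fell by 0.23 (SE 0.06, adjusted p = 0.0153). Each was lost without 5-azacitidine replicate 1 and without 1 vehicle replicate (3 for PRIM1, 2 for POLA1; adjusted p up to 0.0579 and 0.0819).

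Of 33 transcription factors and cofactors known to act at the TERT promoter 28 were tested. With the inhibitor against vehicle 4 rose and 16 fell (median −0.20), beside 26.4% of all genes called higher and 24.9% lower. With both drugs against vehicle 7 rose and 16 fell, beside 29.6% and 27.5%, and with 5-azacitidine against vehicle 1 rose and 4 fell, beside 4.31% and 4.75%. MYC, the best known activator of TERT, rose by 0.32 with the inhibitor (SE 0.06, adjusted p = 3.19e-05) and by 0.31 with both drugs (SE 0.06, adjusted p = 3.35e-05), each against vehicle, opposite in sign to TERT. With 5-azacitidine MYC fell by 0.24 (SE 0.06, adjusted p = 0.00607), a call lost without vehicle replicate 1 (adjusted p = 0.0563, the highest of 23 alternatives, whose lowest was 0.000767). MAX, the partner of MYC, had a change of 0.01 with the inhibitor and 0.01 with 5-azacitidine.

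Among repressors that share MAX with MYC, MXD4 rose by 0.46 with the inhibitor (SE 0.08, adjusted p = 1.91e-05), while MNT fell by 0.55 (SE 0.09, adjusted p = 8.93e-06). MXD1 rose by 0.79 with 5-azacitidine (SE 0.19, adjusted p = 0.00843), lost without vehicle replicate 3 or 5-azacitidine replicate 2 (adjusted p up to 0.0555). GABPA, an ETS factor, fell by 0.44, E2F4 by 0.43, CTCF by 0.23 and E2F1 by 0.20 with the inhibitor (adjusted p = 1.64e-06, 9.51e-08, 0.000441 and 0.00624), the last lost with the stricter filter. SMARCB1, a subunit of SWI/SNF remodellers, fell by 0.26 with 5-azacitidine (SE 0.05, adjusted p = 0.0017).

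The genes around TERT on chromosome 5 were set beside it. Within 500 kb, by gene start, the table has 59 genes, of which 14 were tested. With the inhibitor against vehicle 9 of the 14 fell and none rose, beside 24.9% of all tested genes called lower and 26.4% higher. Of the 10382 genes that passed the stricter filter, 30.02% were called lower and 29.08% higher. Within 1000 kb 12 of 27 fell and none rose. With both drugs 9 fell and 2 rose against vehicle, beside 27.5% of all genes called lower and 29.6% higher. Against 5-azacitidine 9 fell and 2 rose as well, beside 25.1% called lower and 28.7% higher. With 5-azacitidine 3 fell and 1 rose (4.75% and 4.31% of all genes). Of these 4 calls, that of ZDHHC11 was lost in 13 of 23 alternatives, among them each without 1 vehicle or inhibitor library and those without 5-azacitidine replicate 1 or 2 (adjusted p up to 0.237). The rise of ENSG00000305812 was lost in 7 of 21, among them each without 1 5-azacitidine library and those without vehicle replicate 1 or 2 or inhibitor replicate 2 (adjusted p up to 0.173).

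CLPTM1L, the nearest tested protein-coding gene upstream of TERT and 22684 bases away, encodes a membrane protein and averaged 185 CPM with both drugs, 203 with the inhibitor, 236 with 5-azacitidine and 284 with vehicle. It fell by 0.49 with the inhibitor (SE 0.05, adjusted p = 7.18e-09), by 0.27 with 5-azacitidine (SE 0.05, adjusted p = 0.000643) and by 0.62 with both drugs (SE 0.05, adjusted p = 5.09e-11), each against vehicle, in the same order of groups as TERT. LPCAT1, an acyltransferase, fell by 0.46 with the inhibitor, TRIP13, an ATPase of the mitotic checkpoint, by 0.60 and BRD9, a SWI/SNF subunit, by 0.30 (adjusted p = 2.04e-08, 7.71e-10 and 6.52e-05). The other called falls with the inhibitor were ZDHHC11 and 4 genes known only by an ID, ENSG00000291079, ENSG00000300381, ENSG00000287486 and ENSG00000287600, and the 5 not called were NKD2, LINC03067, ENSG00000286388, ENSG00000288930 and ENSG00000305812. The ENSG00000287600 call was lost in 12 of 22 alternatives, among them each without 1 vehicle or 5-azacitidine library and those without inhibitor replicate 2 or 3 or replicate 3 of both drugs (adjusted p up to 0.211), and that of ENSG00000287486 without vehicle replicate 3 (adjusted p = 0.0896, 0.00934 to 0.0896 over the alternatives). ENSG00000287486 also shares 106 exon bases with TERT on the other strand. Counting ignored strand and dropped reads that touch more than 1 gene, so reads in those bases counted for neither.

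ENSG00000300381 begins 71 bases upstream of TERT and runs away from it on the plus strand, chr5:1295139-1296787, so the TERT stretch printed above reaches into it. It averaged 2.13 CPM with both drugs, 3.76 with the inhibitor, 4.25 with 5-azacitidine and 5.97 with vehicle, a low level. It fell by 0.67 with the inhibitor (SE 0.14, adjusted p = 0.000194) and by 1.49 with both drugs (SE 0.15, adjusted p = 2.07e-09), each against vehicle, and by 0.82 with both drugs against the inhibitor (SE 0.15, adjusted p = 0.00121). With 5-azacitidine it fell by 0.49 (SE 0.13, adjusted p = 0.0201), lost without vehicle replicate 1 or 3 or 5-azacitidine replicate 1 or 2 (adjusted p up to 0.105). Counting took no account of strand, so RNA from either strand of these bases cannot be told apart.

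**Figure D4:**
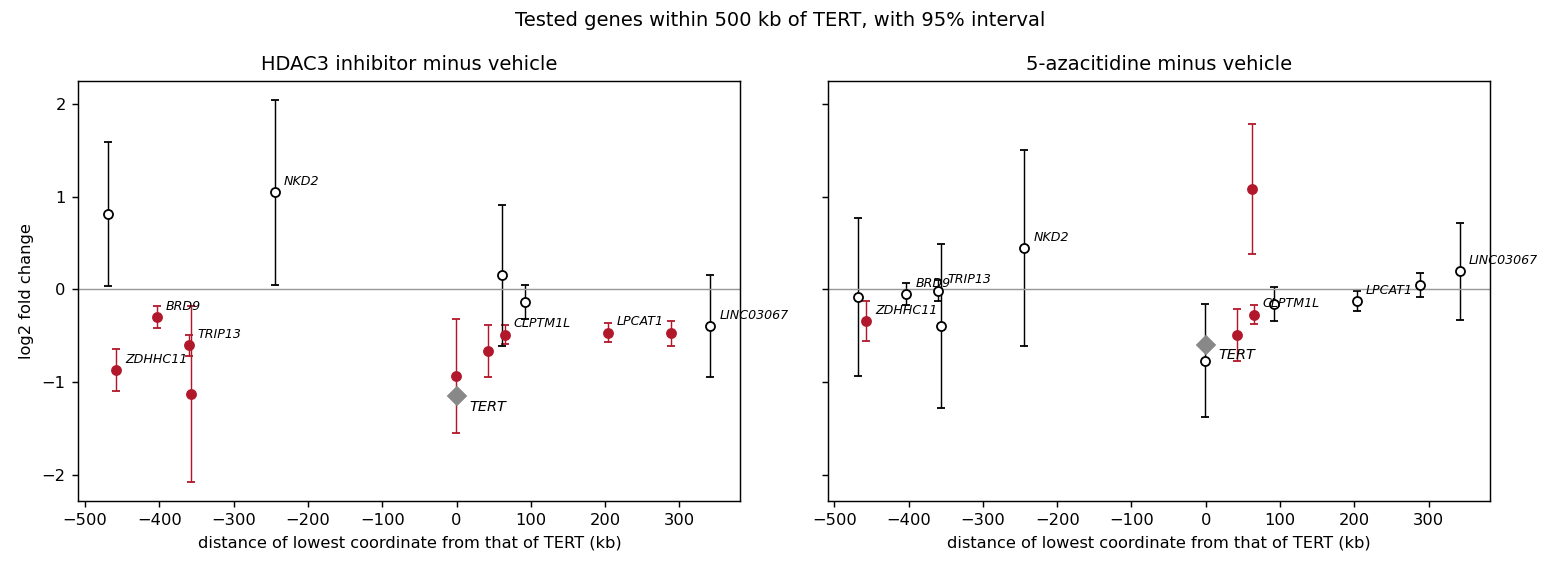
Log2 fold change of the 14 tested genes within 500 kb of TERT against their distance from it (kb, by lowest coordinate), for the inhibitor and for 5-azacitidine, each against vehicle. Red marks are called genes and the grey diamond is TERT; with the inhibitor 9 of the 14 lie below 0 as called genes, and with 5-azacitidine 3 do and 1 lies above.

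By their pattern over the 12 libraries, the coding genes most like TERT were not its partners. Among 9339 genes of at least 5 CPM, the smallest root-mean-square distance of centred log2 CPM was that of UBASH3B (0.126), followed by ZDHHC11 (0.160), ZNF385B (0.162), WDR4 (0.169) and EDRF1 (0.187). They were chosen for this likeness, so their changes are descriptions: that of WDR4, a subunit of a tRNA methyltransferase, was −0.84 with the inhibitor, −0.60 with 5-azacitidine and −1.31 with both drugs, each against vehicle, on the log2 scale. ZDHHC11 lies within 500 kb of TERT and has a near-identical copy, ZDHHC11B, so its counts are uncertain. Its log2 change was −0.87 with the inhibitor (SE 0.11) and −0.34 with 5-azacitidine (SE 0.11), each against vehicle. Of the partners DKC1 was nearest to TERT, at rank 938 (distance 0.404), then NHP2 at 2667 and WRAP53 at 4035, and NOP10 was farthest, at rank 6368 (0.628).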

How the data were processed

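Each value is an expected count for 1 gene, taken as the authors deposited it. The table's header gives featureCounts 2.1.1 run on exons of release 114 (GRCh38), unstranded, with multi-mapping reads shared out as fractions and reads that touch more than 1 gene dropped. It does not settle if single reads or pairs were counted. The tools named in the submitters' processing notes are STAR 2.7.11b, cutadapt 5.1, FastQC 12.1, bcl2fastq 2.17.1.14 and Subread 2.1.2. Another 4 libraries of the 16 in the header were not used here. Values were rounded to whole numbers, which 96.9% already were within 1e-06. Exon lengths and coordinates came from the other columns of the deposited table.

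In R 4.3.3, edgeR 4.0.16 kept 17869 genes (filterByExpr, 99.93% of counts), with TMM scaling, 1 mean per group over the 12 libraries, the quasi-likelihood F-test (two-sided) and Benjamini-Hochberg adjustment over all tested genes; genes were called at an adjusted p under 0.05. The biological coefficient of variation was 6.05%. Alternatives used DESeq2 1.42.0, limma 3.58.1 and other scalings, filters, blocks and left-out libraries. The fit was tested on simulated data, but no setting or result of that is given here, so it lends the p-values no support. Named from each list were the 4 genes of smallest adjusted p with the inhibitor, the 2 with 5-azacitidine, and 9 further genes set by name; around TERT all tested genes within 500 kb, and the 5 genes nearest to it in pattern, were named, except 1 gene that is not reported here. The 10 genes and the lists were chosen with earlier results of these data known.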

Additional observations from a re-analysis of the deposited data

How the results depend on the processing

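Over 23 alternatives (22 for the interaction), TERT kept its direction in every comparison. Its change ran from −1.18 to −1.08 with the inhibitor against vehicle (−1.08 with the filter of 5 CPM in at least 3 libraries), −0.63 to −0.54 with 5-azacitidine and −1.65 to −1.45 with both drugs. With both drugs it ran from −1.06 to −0.86 against 5-azacitidine and −0.50 to −0.30 against the inhibitor. Leaving out 1 library at a time, TERT ran from −1.18 to −1.13 with the inhibitor and its interaction from 0.10 to 0.30. The partners called ran from 2 to 6 with both drugs against 5-azacitidine, 2 to 5 against vehicle, 0 to 2 against the inhibitor and 2 to 3 with the inhibitor alone, and stayed at 0 with 5-azacitidine. No share of all genes is given for fits with left-out libraries or replicate blocks, here, above or below. Their counts therefore have nothing to be set against. With both drugs against 5-azacitidine the stricter filter called 3 (1 higher, NOP10, and 2 lower), beside 32.63% of all its genes higher and 31.8% lower. Without the pair with the most mitochondrial counts (5-azacitidine replicate 1 and replicate 3 of both drugs) 2 partners were called there. Of 1233 single partner values 1188 kept their side of the threshold, 33 lost a call and 12 gained one. No value that was called in either fit changed sign. Some that were called in neither did, such as POT1 with the inhibitor against vehicle (−0.05 to 0.08 over the alternatives). The cause of these shifts was not tested.

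Samples with the same replicate number did not deviate together: the correlation of their deviations was −0.06 to 0.07 over 18 pairs by title and −0.03 to 0.07 over 13 pairs by library name. With the title number as a replicate block the partners called were 3 with the inhibitor, 0 with 5-azacitidine, 3 with both drugs and 5 against 5-azacitidine, and TERT was −0.60 with 5-azacitidine; with the number of the library names, 4 were called with both drugs, POT1 added. The SE of a partner's log2 change with the inhibitor was 0.05 to 0.07, so a partner that was not called may still have changed within its 95% interval.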
